A study of Mus musculus with 8 samples.

Results

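The genes described here encode matricellular proteins and their close relatives: the thrombospondins (Thbs1, Thbs2, Thbs3 and Thbs4), periostin (Postn), SPARC and its homologue SPARC-like 1 (Sparc and Sparcl1), osteopontin (Spp1) and the SPARC-related modular calcium-binding proteins (Smoc1 and Smoc2). The 10 genes were listed by name, and a probe set counted as a member when its annotation gave that gene alone. This yielded 15 probe sets for 9 of the 10 genes, among 34945 single-gene probe sets and 18193 genes in all. Spp1 had no such probe set in the annotation used and was not analysed here.

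Total RNA was measured on Affymetrix oligonucleotide arrays covering the mouse genome: 3 arrays of ES cells, 3 of neural precursor cells (NPC) and 2 of embryonic fibroblasts (MEF), all labelled wild type. The pluripotent ES cells, line V6.5, were kept with leukemia-inhibiting factor in serum. They were grown on irradiated MEF and then passaged on gelatin, a step the labels describe as meant to remove feeder cells. NPC had been made from ES cells in culture, through embryoid bodies and selection in ITSFn medium, and were maintained in FGF2 and EGF2, as the labels spell them. MEF were grown in medium with serum. Strain, embryonic age and passage of the MEF, and the ES line behind the NPC, are not given in the sources used here, nor do the labels tie the arrays of a cell type to different cultures. The p-values therefore speak only of variation from array to array, part or all of which can be technical.

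Matricellular proteins are secreted into the extracellular matrix, where they do not bear load but bind collagens, growth factors, proteases and cell surface receptors. They tune adhesion, migration and growth factor signalling, and many are prominent in developing connective tissue and in wound repair. In the brain, astrocytes secrete thrombospondins and the Sparcl1 protein (also called hevin), which promote the formation of synapses, whereas the SPARC protein counteracts hevin there. Because RNA came from whole cultures, fewer cells of a type and less RNA per cell cannot be told apart.

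Levels are given as log2(intensity + 16) after quantile normalization, from the brightest probe set of each gene; before normalization an intensity of 0 reads 4 on this scale. A gene was called different when it moved by at least 1 on the log2 scale and its limma adjusted p was under 0.05. The labelled cell types carried their markers: the mean of Pou5f1, Nanog and Zfp42 was 11.65 to 11.76 on the ES arrays and at most 4.63 elsewhere. That of Nes, Sox2, Olig2 and Fabp7 was 11.03 to 11.55 in NPC and at most 7.52 elsewhere, although Sox2 alone was at 12.05 in ES cells. That of Col1a1, Col1a2 and Thy1 was 12.49 to 12.50 in MEF and at most 6.35 elsewhere. NPC 1 was the least like its group: it correlated at 0.967 with NPC 2 and at 0.969 with NPC 3, which reached 0.987 with each other. With 2 or 3 arrays a group, precision is limited by their number.

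Most of these genes were highest in MEF. Of the 9 measured members, 8 were higher in MEF than in ES cells and none was lower, against 12.2% higher and 12.8% lower among all genes. The median log2 difference of the members was 2.13 and that of all genes was -0.04. Between MEF and NPC, 7 members were higher in MEF and 2, Sparcl1 and Smoc1, were higher in NPC, where 10.5% of all genes were higher and 7.95% lower in MEF. The medians were 2.44 for the members and -0.01 for all genes. Between NPC and ES cells, Sparcl1 and Smoc1 were higher in NPC and Thbs1 was lower, while 10.0% of all genes were higher and 12.9% lower, with medians of -0.04 and -0.05. The 3 comparisons share arrays, so their results are not independent of each other.

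The balance of directions among all genes depended on the scaling of the arrays. Of all calls, 48.9% were higher in MEF than in ES cells after quantile normalization. Median centring gave 65.1% and the scaling as deposited 79.3%, the latter with an all-gene median of 0.32. Between MEF and NPC these shares were 56.9%, 74.1% and 87.5%, with an all-gene median of 0.43 for the last. The counts of members called in these 3 comparisons, 3, 8 and 9, were the same under all these scalings.

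**Figure D1:**
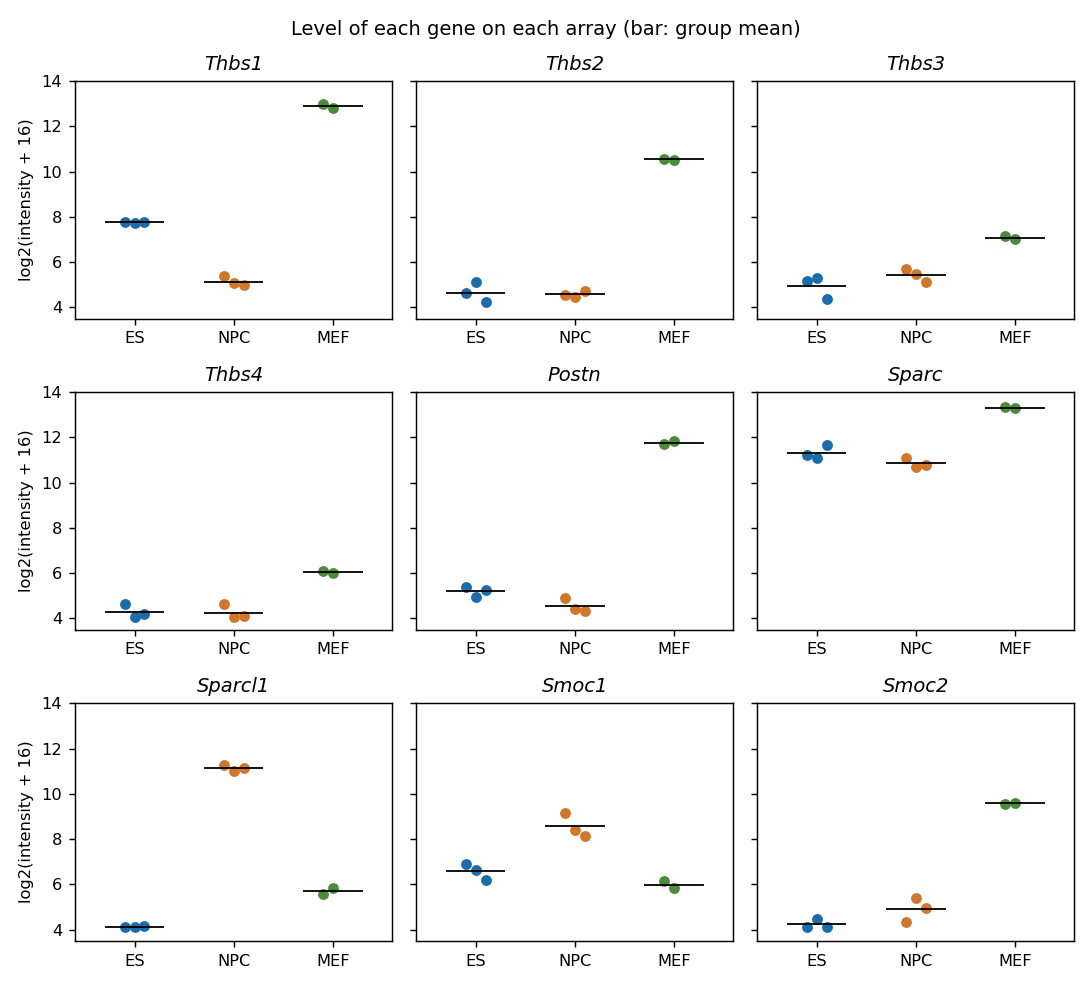
Level of each of the 9 measured genes on each array as log2(intensity + 16) after quantile normalization; dots are arrays (3 ES, 3 NPC, 2 MEF) and bars are group means. Sparcl1 and Smoc1 are highest in NPC, and the other 7 genes are highest in MEF, with Sparc above 10 in every group.

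Thbs1 encodes a trimeric thrombospondin that binds the receptors CD36 and CD47, restrains blood vessel growth and can activate latent TGF-beta. It read 7.79, 7.71 and 7.79 in ES cells, 5.37, 5.07 and 4.97 in NPC, and 12.99 and 12.81 in MEF. The 3 groups did not overlap: MEF was highest, ES cells intermediate and NPC lowest. Thbs1 was 35.2-fold higher in MEF than in ES cells (log2 difference 5.14, SE 0.137, limma adjusted p = 1.79e-08). It was 217-fold higher in MEF than in NPC (7.76, SE 0.137, limma adjusted p = 2.8e-09).

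In NPC, Thbs1 was 6.17-fold lower than in ES cells (-2.63, SE 0.122, limma adjusted p = 2.75e-07), and -2.74 without NPC 1. The difference was -3.34 with a pseudocount of 1 and -1.68 with 64, and that between MEF and NPC 8.58 and 6.53, so these folds depend on the added value. Thbs1 was the only member called lower in NPC. The fibroblast markers moved with it: Col1a1 (-2), Col1a2 (-1.74) and Thy1 (-1.02) were all called lower in NPC than in ES cells. With a pseudocount of 64 none of these calls held (-0.86, -0.98 and -0.50). Thy1 also fell short of the minimum under all 3 other scalings (-0.94 to -0.98) and without ES 1, ES 3, NPC 2 or NPC 3 (-0.98 to -0.89). Their mean ran from 6.33 to 6.35 on the ES arrays and from 4.61 to 4.90 on the NPC arrays. Their part in the difference of Thbs1 was not tested.

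Thbs2, the other trimeric thrombospondin, also binds CD36 and CD47 and takes part in collagen fibril assembly. It was at 4.64, 5.10 and 4.22 in ES cells, 4.56, 4.47 and 4.71 in NPC, and 10.54 and 10.53 in MEF. Only the MEF arrays stood above the rest, and the ES and NPC arrays overlapped. The rise was 59-fold over ES cells (5.88, SE 0.245, limma adjusted p = 2.23e-07) and 62.1-fold over NPC (5.96, SE 0.245, limma adjusted p = 2.22e-07). Outside MEF the deposited values, 2.5 to 16.6, lay near or below the added 16, which sets these folds: the differences were 7.38 and 7.39 with a pseudocount of 1 and 4.38 and 4.41 with 64. Between NPC and ES cells the log2 difference was -0.07 (SE 0.22, limma adjusted p = 0.827), within the spread of the arrays.

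Thbs3 and Thbs4 encode pentameric thrombospondins, which lack the type 1 repeats that bind CD36. They are found in cartilage, tendon, muscle and nervous tissue. Thbs3 was at 5.18, 5.30 and 4.37 in ES cells, at 5.69, 5.47 and 5.12 in NPC and at 7.14 and 7.02 in MEF. Again the MEF arrays alone lay above all others. The difference to ES cells was 2.13 (SE 0.296, 4.38-fold, limma adjusted p = 0.000284) and that to NPC 1.66 (SE 0.296, 3.16-fold, limma adjusted p = 0.00181), while NPC and ES cells differed by 0.47 (limma adjusted p = 0.185). With a pseudocount of 1 the differences of MEF were 3.07 and 2.13. With 64, that to ES cells was 1.21 and that to NPC only just passed the minimum of 1.

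Thbs4 was dim throughout. It was at 4.62, 4.06 and 4.21 in ES cells, at 4.62, 4.05 and 4.12 in NPC and at 6.10 and 5.99 in MEF. In deposited units, the MEF arrays read 73.6 and 67.5 and the other arrays 0.4 to 8.5. MEF was above ES cells by 1.75 (SE 0.225, 3.36-fold, limma adjusted p = 0.000179) and above NPC by 1.78 (SE 0.225, 3.44-fold, limma adjusted p = 0.000227). Both calls ended with a pseudocount of 64, at 0.75 and 0.76, and the values were 3.72 and 3.96 with a pseudocount of 1, so the size of the fold is poorly fixed. ES cells and NPC differed by -0.04 (limma adjusted p = 0.91), a value whose sign depended on the array left out.

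Postn encodes periostin, a fasciclin-domain protein that binds integrins and collagen and is made by fibroblasts of periosteum, periodontal ligament and healing wounds. It was at 5.39, 4.96 and 5.25 in ES cells, at 4.91, 4.41 and 4.31 in NPC, and at 11.71 and 11.82 in MEF. In deposited units this is 2.9 to 26.5 on the ES and NPC arrays against 5144.4 and 5388.5 in MEF. Postn was 94.8-fold higher in MEF than in ES cells (6.57, SE 0.216, limma adjusted p = 5.89e-08). The difference between MEF and NPC was 150-fold (7.23, SE 0.216, limma adjusted p = 3.61e-08). These differences were 7.34 and 8.84 with a pseudocount of 1 and 5.38 and 5.63 with 64, so the folds are not fixed and were not ranked against those of other members.

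The NPC arrays all lay below the ES arrays for Postn, by 0.66 (SE 0.193). This passed the adjusted p (limma adjusted p = 0.0192) but not the minimum difference of 1. With a pseudocount of 1 the difference was -1.51 and was called.

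Sparc encodes a collagen- and calcium-binding glycoprotein of basement membranes and remodelling tissue. Its signal lay far above the floor of the scale in all 3 cell types: 11.22, 11.10 and 11.66 in ES cells, 11.11, 10.71 and 10.80 in NPC, and 13.33 and 13.30 in MEF. Deposited intensities ran from 1331 to 2460 on the ES and NPC arrays and were 12590 and 12256 in MEF. MEF lay above both other groups on both of its arrays, 3.96-fold over ES cells (1.99, SE 0.169, limma adjusted p = 1.27e-05) and 5.43-fold over NPC (2.44, SE 0.169, limma adjusted p = 5.35e-06). NPC 1 overlapped the ES arrays, and the difference between NPC and ES cells was -0.45 (SE 0.152, limma adjusted p = 0.035), short of the minimum of 1.

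Sparcl1 went the other way from Sparc between MEF and NPC. It was at 4.12, 4.10 and 4.16 in ES cells, at 11.26, 11.02 and 11.13 in NPC and at 5.58 and 5.82 in MEF. The deposited intensities were 1 to 1.8 in ES cells, 1701 to 1988 in NPC, and 42 and 56.6 in MEF. None of the 3 groups overlapped, with NPC highest, MEF next and ES cells lowest. Sparcl1 was 129-fold higher in NPC than in ES cells (7.01, SE 0.123, limma adjusted p = 1.64e-09) and 43.2-fold lower in MEF than in NPC (-5.43, SE 0.137, limma adjusted p = 1.43e-08). Because the ES values lay far below the added 16, the difference between NPC and ES cells was 9.86 with a pseudocount of 1 and 5.13 with 64, called each time. That between MEF and NPC was -5.92 and -4.52.

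The smaller difference of Sparcl1 between MEF and ES cells was 1.58 (SE 0.137, 2.98-fold, limma adjusted p = 1.45e-05). As ES cells lay at the bottom of the range, it moved from 0.62, not called, with a pseudocount of 64 to 3.94 with a pseudocount of 1. Astrocyte markers differed among themselves in NPC: of Gfap, Aqp4, Aldh1l1, S100b and Slc1a3, S100b (1.95) and Slc1a3 (4.08) were called higher than in ES cells. Gfap was at 4.98 in NPC and 5.18 in ES cells, and Aqp4 at 5.07 and 4.73. Aldh1l1 was lower on every NPC array, at 5.27 against 6.06 in ES cells (-0.79), short of the minimum of 1. The mean of the 5 was 6.19 to 6.51 in NPC, 5.09 to 5.31 in ES cells and 4.90 to 5.01 in MEF, and its part in the rise of Sparcl1 was not tested.

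The paralogues Smoc1 and Smoc2, secreted calcium-binding proteins of basement membranes, were called in opposite directions between MEF and NPC. Smoc1, which modulates BMP signalling in eye and limb development, was at 6.92, 6.65 and 6.18 in ES cells, at 9.14, 8.4 and 8.13 in NPC and at 6.13 and 5.82 in MEF. The NPC arrays lay above all others, with NPC 1 the highest. Smoc1 was 3.93-fold higher in NPC than in ES cells (1.97, SE 0.276, limma adjusted p = 0.000292; 1.68 without NPC 1) and 5.99-fold lower in MEF than in NPC (-2.58, SE 0.309, limma adjusted p = 0.000161; -1.94 with a pseudocount of 64). The MEF arrays lay below the ES arrays by 0.61 (SE 0.309), which did not pass (limma adjusted p = 0.146) and was only -0.08 at the deposited scaling.

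Smoc2 was at 4.12, 4.47 and 4.10 in ES cells, at 4.34, 5.41 and 4.94 in NPC and at 9.57 and 9.60 in MEF. The MEF arrays stood far above the rest, and NPC 1, unlike NPC 2 and NPC 3, lay within the range of the ES arrays. Smoc2 was 41-fold higher in MEF than in ES cells (5.36, SE 0.291, limma adjusted p = 8.64e-07) and 25.8-fold higher than in NPC (4.69, SE 0.291, limma adjusted p = 2.64e-06). Deposited ES values of 1.1 to 5.7 lay below the added 16, and these differences were 7.85 and 5.85 with a pseudocount of 1 and 3.61 and 3.38 with 64. Between NPC and ES cells it differed by 0.67 (SE 0.26, limma adjusted p = 0.0635). Without NPC 1 this was 0.95 (limma adjusted p = 0.00222), and with a pseudocount of 1 it was 2.00 and called.

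**Figure D2:**
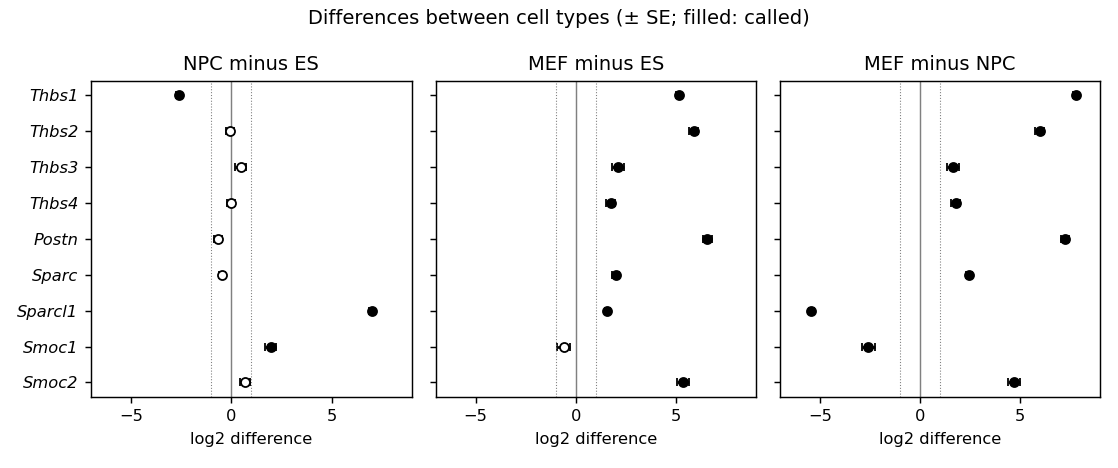
Log2 difference of each measured member between NPC and ES cells, MEF and ES cells, and MEF and NPC; bars are the standard error of the fit, filled dots are called, and dotted lines mark differences of 1. Sparcl1 is at 7.01, 1.58 and -5.43 in the 3 panels and Thbs1 at -2.63, 5.14 and 7.76.

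For Thbs1, Thbs2 and Smoc2, every probe set was called higher in MEF than in both other cell types. Over all 15 member probe sets, 4 were called between NPC and ES cells, 13 between MEF and ES cells and 14 between MEF and NPC, where 17.9%, 19.4% and 16.2% of all 45037 probe sets were called in either direction. The second probe set of Thbs1, 1460302_at, was at 8.22 to 8.49 in ES cells, 4.05 to 4.54 in NPC, and 12.92 and 12.89 in MEF. It therefore gave a deeper fall in NPC than the first, -4.15 (SE 0.145) against -2.63, and a rise of 4.53 against 5.14 in MEF over ES cells. The 3 probe sets of Thbs2 rose by 4.86 to 5.88 from ES cells to MEF, and the 2 of Smoc2 by 5.36 and 4.31.

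Sparc was the exception. Its probe sets 1416589_at and 1448392_at gave 1.99 and 2.37 between MEF and ES cells, and 1448392_at gave -0.70 between NPC and ES cells with no overlap of arrays. The third, 1458204_at, stayed between 4.40 and 5.53 on all 8 arrays and was not called in any comparison (-0.14, SE 0.259, between MEF and ES cells; limma adjusted p = 0.738). Its level cannot be set against that of the others, since each probe set binds with its own strength.

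**Figure D3:**
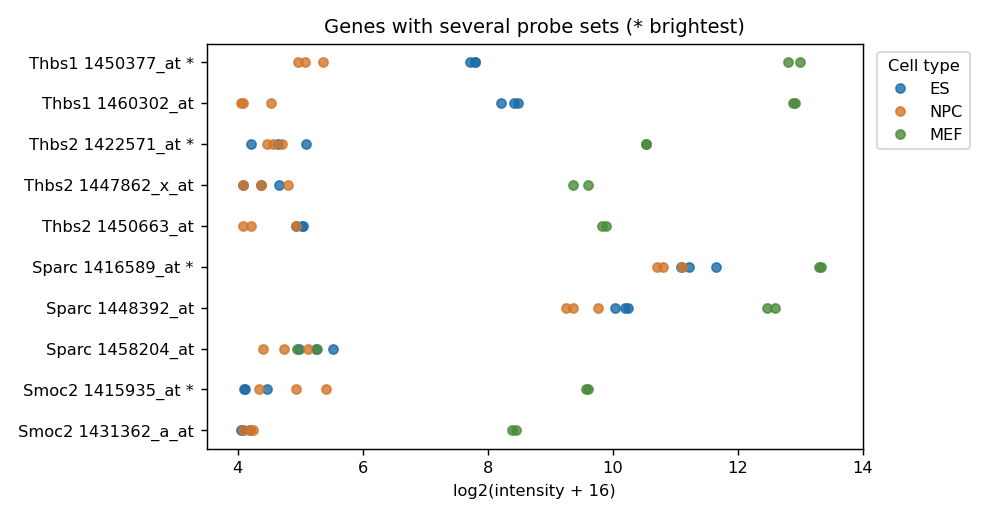
Level on each array, as log2(intensity + 16) after quantile normalization, for the 4 genes with several probe sets; each dot is an array, coloured by cell type, and a star marks the brightest probe set. The MEF dots lie to the right of the others for all but the Sparc probe set 1458204_at, where the 3 cell types lie between 4.40 and 5.53.

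Promoter sequences were at hand for 5 of the 7 genes that were highest in MEF. Those of Postn and Thbs2 are shown for their large differences between MEF and the other cells, that of Sparc because the gene was measured well in all 3 cell types, and that of Thbs4 because it lay near the floor outside MEF. Each is the 250 bases upstream of an annotated start in RefSeq (GRCm38.p6), 5′ to 3′ on the gene's strand, with matches to the motifs named next in capitals. Postn has a pair of such windows and the downstream one is shown, since the other held no motif match.
Postn, chr3:54360857-54361106, plus strand: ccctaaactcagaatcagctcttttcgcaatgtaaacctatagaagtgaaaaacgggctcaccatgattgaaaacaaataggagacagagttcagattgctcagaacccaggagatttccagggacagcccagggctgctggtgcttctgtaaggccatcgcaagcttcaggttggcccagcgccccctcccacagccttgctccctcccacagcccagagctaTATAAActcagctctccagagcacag
Thbs2, chr17:14694263-14694512, minus strand: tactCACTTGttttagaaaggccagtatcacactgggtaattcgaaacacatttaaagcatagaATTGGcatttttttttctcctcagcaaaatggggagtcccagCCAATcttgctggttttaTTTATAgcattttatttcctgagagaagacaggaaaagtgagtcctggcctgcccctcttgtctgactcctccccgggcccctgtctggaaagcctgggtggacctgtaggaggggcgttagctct
Sparc, chr11:55420081-55420330, minus strand: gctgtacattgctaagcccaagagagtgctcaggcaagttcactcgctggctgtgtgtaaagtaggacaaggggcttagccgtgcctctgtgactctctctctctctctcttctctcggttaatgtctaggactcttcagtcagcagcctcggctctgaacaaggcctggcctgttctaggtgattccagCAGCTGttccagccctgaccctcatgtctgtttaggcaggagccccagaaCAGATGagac
Thbs4, chr13:92794819-92795068, minus strand: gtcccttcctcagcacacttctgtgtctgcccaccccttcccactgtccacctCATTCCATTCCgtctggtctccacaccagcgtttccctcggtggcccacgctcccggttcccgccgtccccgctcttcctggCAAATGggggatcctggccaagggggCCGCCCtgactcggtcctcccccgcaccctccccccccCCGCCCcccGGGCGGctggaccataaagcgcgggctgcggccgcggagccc

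Motifs were searched as exact letters on both strands, and their shares are over 32536 windows of the same length. The letters of a TATA box, TATAAA, which positions the start of transcription, occurred in 12.3% of these windows. Those of the CCAAT box, bound by the NF-Y factor, occurred in 33.8%. The GC box, bound by Sp1 and its relatives and searched as GGGCGG, occurred in 33.0% of all windows. The AP-1 site of Fos and Jun proteins, TGANTCA with N for any base, was present in 6.73%. For TEAD factors, partners of the growth regulator YAP, the search with GGAATG found 12.6%. An E-box, read by helix-loop-helix factors and searched as CANNTG, was in 66.2%. The site of the GATA factors, searched as AGATAA, was in 9.97%. Matches of different motifs did not overlap in the windows shown. The Postn window held a TATAAA that began 26 bases before the start and no other match. The Thbs2 window held a TATA match on the opposite strand, 126 bases before the start, with 2 CCAAT matches and 1 E-box. In the Sparc window there were 2 E-boxes and none of the other motifs. The Thbs4 window, with 70.8% G and C against a median of 52.4%, held 3 GC box matches, 2 overlapping TEAD matches and 1 E-box. These are letter matches and do not show binding, and the windows of these genes shared no motif that all 4 held.

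Genes with the most similar profiles were found by the root mean square difference over the 8 arrays, after each gene was centred on the mean of its group means. For Postn these were Cdh11, a mesenchymal cadherin, Tm4sf1 and Ccn4, at 0.272, 0.288 and 0.290 log2 units. For Thbs1 they were Myl9, a myosin light chain of contractile cells, Bgn, the matrix proteoglycan biglycan, and Igf2 (0.288, 0.318 and 0.379), which shared its order of MEF, ES cells and NPC. Thbs2 was closest to Col6a3, Col6a1 and Fbln5 (0.213 to 0.255), and Smoc2 to Fibin, Col5a1 and Axl (0.262 to 0.327).

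The profile of Sparcl1 was closest to those of Gpm6b, a neural membrane glycoprotein, the semaphorin gene Sema6d and the gliogenic transcription factor gene Nfia (0.252, 0.383 and 0.407). Smoc1 was closest to Peli1, Kcnip3 and Crip2 (0.223 to 0.256). Sparc was closest to Tnfsf11, Plekho2 and Emilin2 (0.0978 to 0.126). Thbs3 matched Tmem167b, Marveld1 and Cyp26b1 (0.237 to 0.248) and Thbs4 matched Sec23a, Slc15a3 and Tenm3 (0.130 to 0.171). With 3 cell types, such likeness is a description of 8 arrays and carries no test. It was not recomputed with another pseudocount, on which the differences of dim genes depend. Bright and dim genes were matched: Tnfsf11 was at 4.72, 4.17 and 6.81 in ES cells, NPC and MEF, and Sparc at 11.33, 10.87 and 13.31.

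Relatives of the members were mostly not called. Among 10 genes of the same families, 2 were higher and 1 lower in MEF than in ES cells, with a median of 0.24. For all genes the shares were 12.2% higher and 12.8% lower, with a median of -0.04. With 10 genes, the counts of relatives in this comparison lay near these shares. Between MEF and NPC, 3 were higher in MEF and none was lower (median 0.32), against 10.5% and 7.95% of all genes. In NPC, none was higher and 2 were lower than in ES cells (median -0.1), against 10.0% and 12.9% of all genes. Fstl1, a member of the SPARC family, was at 12.75 ± 0.0303 (SD, n = 2) in MEF and 9.89 ± 0.0203 (SD, n = 3) in ES cells, 7.23-fold higher. Tgfbi, the fasciclin-domain relative of periostin, rose 2.45-fold over ES cells and fell by 2.62 on the log2 scale from ES cells to NPC. Spock2, a testican of brain matrix, was at -1.06 in NPC and -1.25 in MEF against ES cells. Averaging its probe sets ended both calls (-0.52 and -0.63), as did a pseudocount of 64 (-0.54 and -0.63), that of NPC also with median centring (-0.98) or without NPC 2 or NPC 3 (-0.92 and -0.93), and that of MEF at the deposited scaling (-0.90). Comp, the remaining thrombospondin, was called only between MEF and NPC (1.04), which ended under the trimmed mean scaling (0.91), with a pseudocount of 64 (0.45), with the replicate number as a block (0.89), and without NPC 3 (0.84) or MEF 1 (0.86). The other relatives of osteopontin, Ibsp, Dmp1, Dspp and Mepe, lay between 4.06 and 4.99 in every group and were called in no comparison.

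Many receptors and binding partners of these proteins were higher in MEF. Of 19 measured, 13 were higher in MEF than in ES cells and none was lower (median 2.36). Against NPC, 8 were higher and 2 lower in MEF (median 0.66). For all genes, 12.2% were higher and 12.8% lower in MEF than in ES cells, and 10.5% and 7.95% than in NPC. Cd44, a hyaluronan receptor that also binds osteopontin, was 43.7-fold higher in MEF than in ES cells (5.45, SE 0.441, limma adjusted p = 9.09e-06). The integrin genes Itga5 (3.25), Itgb1 (2.95), Itgav (2.63), Itgb5 (2.55) and Itgb3 (2.36) were higher as well, among them the alpha v subunit that pairs with beta 3 or beta 5 to bind periostin. Cd47 (2.81), Cd36 (1.56) and Lrp1 (3.10), receptors of the trimeric thrombospondins, also rose, though the call of Cd36 ended when its probe sets were averaged (0.96) or the pseudocount was 64 (0.60).

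In NPC, 8 receptors were higher than in ES cells and 2, Itga3 (-2.48) and Itgb5 (-1.56), were lower (median 0.73). The shares of all genes were 10.0% higher and 12.9% lower. Among the 8, Itgav (1.08) and Cd36 (1.12) only just passed the minimum of 1. Their calls ended in 7 and 6 of 23 other settings, among them a minimum of 2. Averaging probe sets gave 0.49 and 0.64, and leaving out NPC 1 gave 0.98 and 0.87. Vldlr rose 15.1-fold (3.92, SE 0.359, limma adjusted p = 1.92e-05) and Cacna2d1, the gabapentin-binding calcium channel subunit through which thrombospondins act at synapses, rose 6.72-fold (2.75, SE 0.347, limma adjusted p = 0.000151). Cacna2d1 did not differ by a called amount between MEF and NPC (0.14, SE 0.388, limma adjusted p = 0.833). Cd47 (2.15) and its partner Sirpa (2.50) were higher in NPC too. Itga9 and Vldlr were lower in MEF than in NPC, at -2.01 and -1.49. Both calls ended without either MEF array (-2 and -2.02 for Itga9, -1.42 and -1.55 for Vldlr), that of Itga9 also when its probe sets were averaged (-1.23) or only the MEF and NPC arrays were fitted (-2.01, limma adjusted p = 0.0501), and that of Vldlr when arrays were median centred (-0.90) or left as deposited (-0.55). Within NPC, Itga9 read 6.30, 8.15 and 8.30 on arrays 1, 2 and 3.

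Of 14 enzymes that modify, cross-link or cleave matricellular and collagen proteins, 11 were higher in MEF than in ES cells and none was lower (median 2.22). The shares of all genes were 12.2% higher and 12.8% lower. Mmp14, a membrane metalloprotease, was at 11.13 ± 0.0574 (SD, n = 2) in MEF, 6.73 ± 0.519 (SD, n = 3) in ES cells and 4.99 ± 0.793 (SD, n = 3) in NPC. Adamts1, which cleaves both trimeric thrombospondins, rose by 3.82, and Bmp1, a procollagen proteinase that interacts with periostin, by 3.65. Pofut2, which adds fucose to thrombospondin type 1 repeats, rose by 1.94 in MEF, whereas B3glct, which extends that fucose with glucose, was at -0.49 and not called.

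Against ES cells, where 10.0% of all genes were higher and 12.9% lower in NPC, NPC had 5 of these enzymes higher and 3 lower (median 0). This balance changed with the processing. It was 4 and 4 with arrays median centred or left as deposited, 3 and 4 with probe sets averaged, and 3 and 2 with a pseudocount of 64. Bmp1 (2.86), Adamts4 (1.99) and Adamts1 (1.92) rose, while Tgm2, a transglutaminase, fell by 3.48, Mmp14 by 1.74 and Mmp2 by 1.73. The call of Mmp14 ended with a pseudocount of 64 (-0.93). Between MEF and NPC, 8 enzymes were higher in MEF and B3glct alone was lower (-1.22), against 10.5% and 7.95% of all genes. The call of B3glct ended when arrays were median centred (-0.70) or left as deposited (-0.35).

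**Figure D4:**
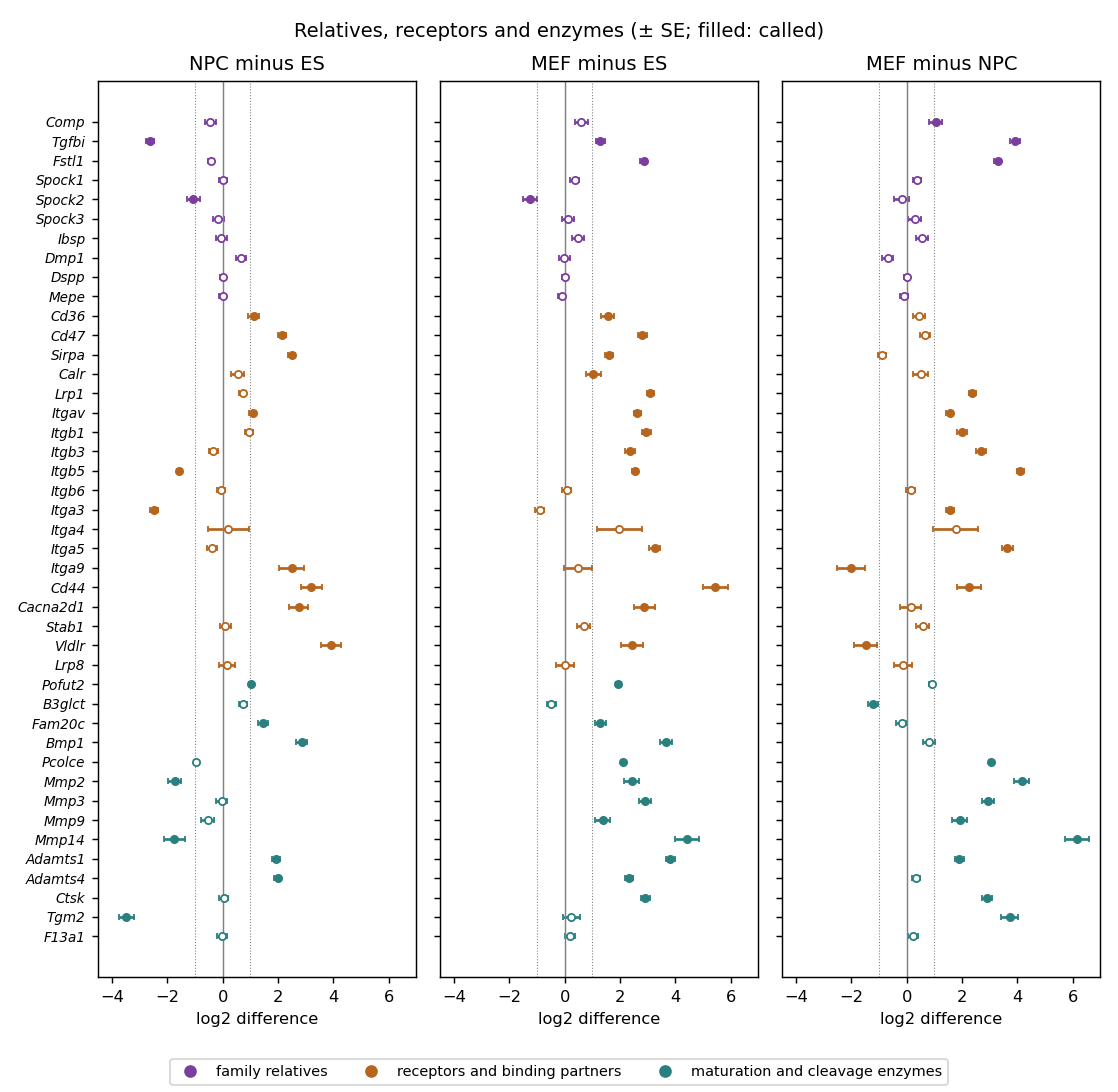
Log2 difference of 43 genes of the same families (purple), receptors and binding partners (brown) and enzymes (teal) between NPC and ES cells, MEF and ES cells, and MEF and NPC; bars are standard errors of the fit and filled dots are called. In the middle panel, 26 of 43 dots are filled to the right of 0 and 1, Spock2, to the left. Of all genes, 12.2% were higher and 12.8% lower in that comparison.

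Markers of other cell types were read beside these results. For all genes, 12.2% were higher and 12.8% lower in MEF than in ES cells, and 10.5% and 7.95% than in NPC. In NPC against ES cells these shares were 10.0% and 12.9%. Macrophage genes were higher in MEF, 5 of 7 against ES cells and 6 of 7 against NPC, with Lyz2 at 8.99, Tyrobp and Cd53 at 7.04 each and Ptprc at 6.21; Cd68 was lower than in ES cells (-1.31). Their mean was 7.05 to 7.07 in MEF, 5.11 to 5.33 in ES cells and 4.81 to 4.90 in NPC. Of 7 endoderm genes, NPC had 5 at lower levels than ES cells, and 1, Afp, was higher and 2 lower in MEF than in ES cells; the means were 6.81 to 7.00 in ES cells, 5.26 to 5.35 in NPC and 6.84 in MEF. Of 5 endothelial genes none was higher in MEF or NPC than in ES cells, with means from 4.39 to 5.34 on all arrays. Of 5 bone and cartilage genes, Col2a1 (2.6) and Sox9 (1.5) were higher and Alpl (-3.77) lower in MEF than in ES cells. Sp7 lay between 5.23 and 5.38 in all groups. In NPC, Sox9 was higher (3.83) and Alpl (-3.79), Acan (-1.23) and Col2a1 (-1.01) lower than in ES cells. Sox9 was highest in NPC, at 8.1 against 5.77 in MEF. The part of these cell types in the levels of the members was not tested.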

How the data were processed

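The authors deposited a table of intensity on a linear scale, with a value for every probe set on every array. The submitters' processing notes name GCOS 1.4, and how it summarised, corrected and scaled the signals is not given in the sources used here; no detection calls were used. Of 45101 probe sets, 64 controls were left out. GEO's platform annotation gave a single gene for 34945, several for 932 and none for 9160.

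The values were put on a log2(intensity + 16) scale and then quantile normalized. The added 16 understates folds of dim genes. Before normalization, array medians ran from 5.13 to 5.57 log2 units and 2% trimmed means from 111 to 232, both highest in MEF. The probe set with the highest mean stood for its gene. A single linear model of all 8 arrays was fitted in R 4.3.3 with limma 3.58.1 and a variance trend, over all 18193 genes and, separately, all 45037 probe sets, with Benjamini-Hochberg adjustment over each. The procedure was tested on simulated arrays with normal noise and known shifts. These held no floor for dim genes and no outlying array, so the test does not bear on either.

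The members, the 3 lists of relatives, receptors and enzymes, and the markers were chosen with earlier results of these data known, so no list was tested as a set. All members are named; from the lists, called genes could be named, and 3 most similar genes for each member. Runx2 and Bglap among the markers had no probe set of their own and were not analysed here. Alternatives were other scalings, pseudocounts, thresholds, probe set rules and variance models, a filter on dim genes, fits restricted to a pair of groups, a block for replicate number, and leaving out each array. Running them on the 3 lists was decided after seeing the data.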

Additional observations from a re-analysis of the deposited data

How the results depend on the processing

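Of the recomputed member differences, 601 kept direction and side of the threshold, 9 fell short of it, 4 newly passed it and 4 changed sign. The threshold was that of each setting, so some of these moves came from raising or removing the minimum difference alone. The 4 that changed sign were uncalled values between NPC and ES cells. When an array was left out, Thbs4 ranged from -0.21 to 0.12 and Thbs2 from -0.29 to 0.15. With the replicate block, 3, 8 and 9 members were called between NPC and ES, between MEF and ES, and between MEF and NPC, as without it. All genes called hardly moved either: 4186, 4564 and 3357 with the block, and 4173, 4554 and 3359 without it. The call of Comp between MEF and NPC was lost with the block (0.89). Same-numbered arrays of different groups had deviations from their group means that correlated between -0.0199 and 0.0228. The labels do not say whether such arrays were handled together. Deviations from means of 2 or 3 arrays cannot decide it.

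Members called between NPC and ES cells became 5 with a pseudocount of 1 and 5 with no minimum difference, and member probe sets 7 in each case. More of all genes were also called between NPC and ES cells under both settings, so these rises were not particular to the members. Counts of all probe sets under these settings are not given here. With a minimum difference of 2, Smoc1 was no longer called between NPC and ES cells. Members called between MEF and ES cells became 5 with that minimum and 6 with a pseudocount of 64. Between MEF and NPC, Thbs3 and Thbs4 lost their calls with that minimum, and members called became 8 with a pseudocount of 64. In that order of comparisons, all genes called became 2626, 2937 and 2103 with a pseudocount of 64, 8530, 8447 and 7145 with no minimum difference, and 1509, 1560 and 1247 with a minimum of 2, against 4173, 4554 and 3359. Between MEF and NPC the deposited scaling gave 5095. Thbs4 was left out by the filter on dim genes. Values of dim genes depend most on the pseudocount, and the depth of signal behind them is unknown without detection calls.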
